A study of Danio rerio with 23 samples.

Results

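The change in RNA between 5.5 and 7.5 hours post fertilisation (hpf) was measured in zebrafish embryos in which a heat-shock promoter drove wnt8a, a secreted Wnt ligand. These embryos were taken by their sample titles, which gave 3 libraries at 7.5 hpf and 2 at 5.5 hpf, 5 of the 23 libraries of the series. The question addressed here was which stage changes occurred in embryos with wnt8a induced, over all 19504 genes that could be tested.

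Gastrulation begins and advances over this interval. The embryo clears RNA that the oocyte supplied, ends the pluripotency programme of the blastula, and switches on genes that pattern the germ layers along the body axes. Wnt8 signals from the margin of the embryo through Frizzled receptors and beta-catenin, and it is known for posteriorising the neural plate, restricting the dorsal organizer and maintaining mesodermal progenitors, while the forebrain forms where Wnt activity is low.

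The hs:wnt8a/+ embryos at 7.5 hpf (3 libraries) and 5.5 hpf (2 libraries) came from hs:wnt8a/+ fish crossed to wild type, and carriers were identified by fluorescence. Embryos labelled as their wild-type siblings, at 7.5 hpf (3 libraries) and 5.5 hpf (3 libraries), received the same heat shock, 30 minutes at 39 °C in groups of 10 embryos, followed by recovery at 29 °C. Heat-shocked embryos labelled as wild-type siblings from a cross of hs:dkk1b/+ fish, 3 libraries at each time, had 60 minutes at 37 °C before recovery at 29 °C. Every library therefore came from heat-shocked embryos, and none analysed here came from embryos left without a heat shock. The promoter acts in all cells rather than at the margin where the embryo's own wnt8a is active. The titles give 7.5 and 5.5 hpf while the time point field gives 7 and 5 hpf, and it is not settled whether heat shock or collection took place at the times named. The interval between induction and collection is thus not known for either time. Fish were mated in multiple pairs, and no label ties a library to a clutch of its own. The p-values therefore cover the spread among libraries as prepared, part or all of which may be technical. In whole embryos, fewer cells of a type and less RNA per cell cannot be told apart.

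Total counts in the 5 hs:wnt8a libraries ran from 16266221 to 20467185, with 23026 to 23848 genes detected, 1.288% to 2.168% of counts from mitochondrial genes and 8.413% to 10.055% from the 10 most abundant genes. The first principal component of the 11 libraries of this cross held 77.5% of the variance and separated the times. Along the second, with 12% of the variance, replicate 1 at 7.5 hpf stood apart from replicates 2 and 3 in both hs:wnt8a embryos and siblings, and sibling replicate 2 at 5.5 hpf stood apart from the other 2. The counts of calls and the genes for which replicate 1 at 7.5 hpf was extreme are given with and without these libraries, as alternatives chosen after seeing the data.

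The induced gene was checked first. It is listed as wnt8a_1, because 2 identifiers carry the symbol wnt8a, and its level is given as CPM, counts scaled to a common library total, after TMM scaling of library size. wnt8a_1 stood at 3647, 4218 and 3092 CPM in hs:wnt8a embryos at 7.5 hpf, against 3447 and 2664 CPM at 5.5 hpf. In siblings it stood at 180, 2.33 and 14.8 CPM at 7.5 hpf, against 588, 392 and 722 CPM at 5.5 hpf. Every hs:wnt8a library lay above every sibling library, and the hs:wnt8a libraries of the 2 times overlapped. The stage change of wnt8a_1 in hs:wnt8a embryos was a log2 fold change of 0.26 ± 0.85 (SE; edgeR quasi-likelihood test, adjusted p = 0.833), while in siblings it fell by 3.11 ± 0.82 on the log2 scale (adjusted p = 0.00545). In hs:dkk1b siblings wnt8a_1 was at 4.41, 6.31 and 4.18 CPM at 7.5 hpf, against 7.62, 5.57 and 5.06 CPM at 5.5 hpf. The libraries labelled as hs:wnt8a siblings thus held far more of this gene at 5.5 hpf, and in replicate 1 at 7.5 hpf, than any hs:dkk1b sibling library. The source of this RNA was not tested, nor whether carriers were among the embryos labelled as wild type. Below, the word siblings means the libraries so labelled. Every comparison with them carries this limit. The second identifier, wnt8a_2, stood at 16.8, 11.1 and 10.8 CPM in hs:wnt8a embryos at 7.5 hpf, against 18.7 and 18.8 CPM at 5.5 hpf (log2 fold change -0.54 ± 0.29, adjusted p = 0.15).

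Most stage changes of sibling embryos were also found in embryos with wnt8a induced. Of the 19504 genes tested, 7718 (39.6%) differed between 7.5 and 5.5 hpf in hs:wnt8a embryos at an adjusted p below 0.05 in edgeR's quasi-likelihood test. The later time was higher for 4184 genes (21.5%) and lower for 3534 (18.1%), and 4516 genes changed by at least 1 log2 unit, 2480 upward (12.7%) and 2036 downward (10.4%). The libraries of the 2 times did not overlap for 12522 genes (64.2%). With only 2 libraries at 5.5 hpf, the number of genes called rested on both: it was 4838 without replicate 1 at 5.5 hpf and 4727 without replicate 2, and 7345 without replicate 1 at 7.5 hpf, the library that stood apart.

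The siblings of the same cross, which share no library with the hs:wnt8a embryos but share the estimate of spread in the fit, changed at 7840 genes (40.2%), 4259 upward (21.8%) and 3581 downward (18.4%). Of these, 6296 genes changed in the same direction in both, 3387 upward and 2909 downward, which is 81.6% of the calls in hs:wnt8a embryos and 80.3% of those in siblings. A further 1420 genes passed the threshold in hs:wnt8a embryos alone, and 1382 of them had the same sign in siblings. Another 1542 passed in siblings alone, and 1491 of them had the same sign in hs:wnt8a embryos. Just 2 genes were called in opposite directions, arr3b, a cone arrestin, and zgc:173552_8. arr3b stood at 0.301, 0.628 and 0.456 CPM in hs:wnt8a embryos at 7.5 hpf, against 1.53 and 1.34 CPM at 5.5 hpf, and at 2.88, 3.89 and 3.38 CPM in siblings at 7.5 hpf, against 1.61, 0.975 and 1.35 CPM at 5.5 hpf. Without the 2 sibling libraries that stood apart, 8023 genes were called in siblings, and without all 3 libraries that stood apart 6134 genes were shared, 83.5% of the 7345 calls in hs:wnt8a embryos and 76.5% of those in siblings. Across genes, which are not independent replicates, Pearson's r of the 2 stage changes was 0.856. Among the genes called in hs:wnt8a embryos the median absolute stage change was 1.18 log2 units and the median absolute difference from the sibling stage change was 0.21 log2 units.

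**Figure D1:**
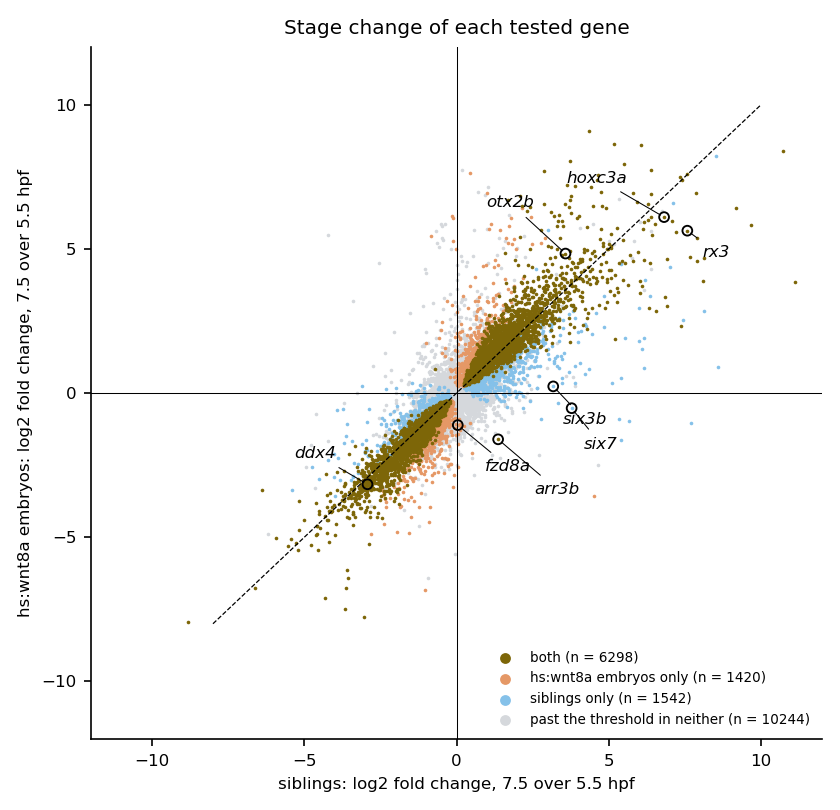
Log2 fold change of 7.5 over 5.5 hpf for each of the 19504 tested genes in hs:wnt8a embryos (vertical axis) and in their siblings (horizontal axis), coloured by where the gene passed an adjusted p of 0.05, with the dashed line marking equal change. Most genes lie along the line, 6296 passed in both with the same direction, and six3b, six7, fzd8a and arr3b lie below it.

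The siblings of the hs:dkk1b cross gave a stage change measured in other embryos under another heat shock, with 6050 genes called (31.0%), 3046 upward (15.6%) and 3004 downward (15.4%). Genes that passed in the same direction in all 3 kinds of embryo numbered 3899, 1952 upward and 1947 downward, or 50.5% of the calls in hs:wnt8a embryos. These counts rested on replicate 2 of the hs:dkk1b siblings at 5.5 hpf, without which 3628 genes were called in hs:dkk1b siblings and 2481 passed in all 3 kinds of embryo, 32.1% of the calls in hs:wnt8a embryos. Pearson's r across genes between hs:wnt8a embryos and hs:dkk1b siblings was 0.623. Along the genes of the hs:dkk1b siblings each library could be placed. The 1668 rising genes lay a median of 1.36, 1.42 and 1.61 log2 units above the mean of the 5.5 hpf libraries in hs:wnt8a replicates 1 to 3 at 7.5 hpf, and 1.29, 1.64 and 1.6 above in the sibling replicates at 7.5 hpf. The 1141 falling genes had medians of -1.51, -1.61 and -1.76 in hs:wnt8a embryos at 7.5 hpf and -1.32, -1.63 and -1.61 in siblings at 7.5 hpf. The hs:wnt8a libraries at 7.5 hpf thus overlapped those of siblings on both sets of genes, and replicate 1 had the smallest shift in each case. With gene sets taken without that hs:dkk1b sibling library, 1106 rising and 600 falling genes, the medians in hs:wnt8a embryos at 7.5 hpf were 1.45, 1.49 and 1.66 and -1.46, -1.59 and -1.75, and those in siblings at 7.5 hpf were 1.40, 1.75 and 1.70 and -1.3, -1.67 and -1.64.

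**Figure D2:**
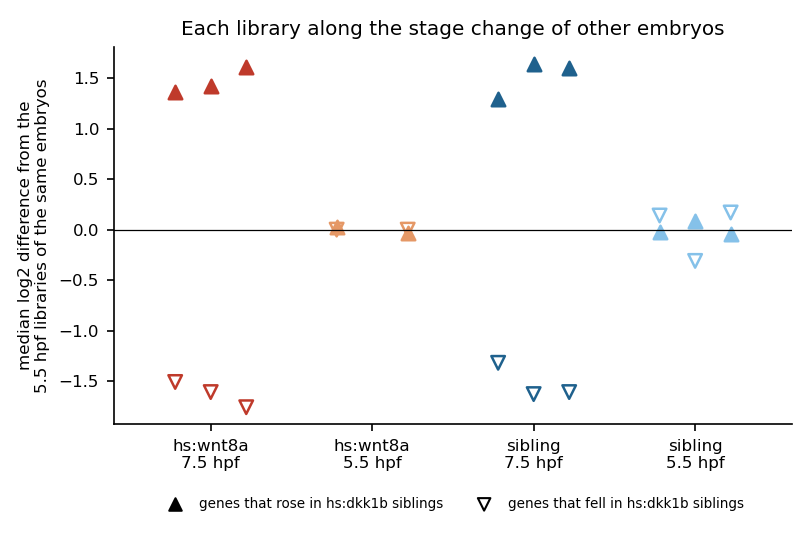
Median log2 difference of each library of the hs:wnt8a cross from the 5.5 hpf libraries of the same embryos, over 1668 genes that rose (filled triangles) and 1141 genes that fell (open triangles) with stage in hs:dkk1b siblings. The hs:wnt8a libraries at 7.5 hpf lie between 1.36 and 1.61 for rising genes and overlap those of siblings.

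Transcripts that the oocyte supplies fell. Of 20 tested members of a list of oocyte-loaded transcripts, 15 were lower at 7.5 hpf in hs:wnt8a embryos, none was higher and 5 did not pass, with a median log2 change of -1.51 beside 0.05 over all genes tested. Siblings gave the same counts with a median of -1.44. Counts for this and each later list stand beside 21.5% of all genes higher and 18.1% lower in hs:wnt8a embryos. Some genes stand in several lists, so counts of different lists are not independent. h1m, the linker histone of the oocyte and early embryo, stood at 8.87, 6.57 and 4.46 CPM in hs:wnt8a embryos at 7.5 hpf, against 61.0 and 74.4 CPM at 5.5 hpf. All 3 later libraries lay far below both earlier ones, and h1m fell by 3.36 ± 0.54 on the log2 scale (adjusted p = 1.53e-04). ccna1, an early embryonic cyclin A, stood at 1.99, 2.61 and 1.67 CPM at 7.5 hpf, against 20.3 and 24.6 CPM at 5.5 hpf, a fall by 3.42 ± 0.66 (adjusted p = 6.21e-04). wee2, an oocyte kinase that holds back entry into division, was at 1.21, 1.30 and 1.22 CPM at 7.5 hpf, against 9.61 and 10.2 CPM at 5.5 hpf, and fell by 2.99 ± 0.50. gdf3, a maternal partner of the Nodal ligands, was at 6.39, 5.17 and 5.88 CPM at 7.5 hpf, against 33.2 and 36.7 CPM at 5.5 hpf. It fell by 2.59 ± 0.47 in hs:wnt8a embryos and by 2.27 ± 0.45 in siblings.

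Genes of the primordial germ cells, whose RNA is also laid down by the mother, followed. Of 15 tested members 8 fell, none rose and 7 did not pass (median -0.93, and -0.69 in siblings). Without either 5.5 hpf library 5 fell. Some members of this list are also in the oocyte-loaded list. ddx4, the vasa RNA helicase of the germ line, stood at 41.5, 29.1 and 26.2 CPM in hs:wnt8a embryos at 7.5 hpf, against 268 and 310 CPM at 5.5 hpf. Siblings had 40.8, 25.6 and 23.1 CPM at 7.5 hpf, against 268, 133 and 278 CPM at 5.5 hpf. The times did not overlap in either kind of embryo, and ddx4 fell by 3.16 ± 0.43 in hs:wnt8a embryos (adjusted p = 4.57e-05) and by 2.93 ± 0.41 in siblings (adjusted p = 3.75e-05). tdrd9, a helicase of the piRNA pathway, stood at 8.80, 12.1 and 8.41 CPM at 7.5 hpf, against 77.0 and 69.0 CPM at 5.5 hpf, and fell by 2.90 ± 0.48 (adjusted p = 1.83e-04). cxcr4b, the chemokine receptor that guides germ cell migration, was at 17.9, 17.5 and 12.2 CPM at 7.5 hpf, against 108 and 92.8 CPM at 5.5 hpf. It fell by 2.66 ± 0.44 in hs:wnt8a embryos and by 3.10 ± 0.42 in siblings. Germ cell regulators whose hs:wnt8a libraries overlapped between times were nanos3, with a log2 change of 0.18 ± 0.43 (adjusted p = 0.768), and dnd1, with -0.72 ± 0.47 (adjusted p = 0.238).

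The blastula programme and the cell cycle declined in the same libraries. Among 25 genes of the blastula programme, a list that shares nanog with the oocyte-loaded list, 15 fell, 3 rose and 7 did not pass. The median was -0.75, and -0.57 in siblings, and 10 were called without replicate 1 at 5.5 hpf and 11 without replicate 2. These counts do not separate RNA supplied by the oocyte from RNA newly made in the embryo. pou5f3, which opens the zygotic genome, stood at 1098, 831 and 585 CPM in hs:wnt8a embryos at 7.5 hpf, against 2812 and 2634 CPM at 5.5 hpf. Both earlier libraries held more than any later one, and replicate 1 was the highest of the 3 later libraries. pou5f3 fell by 1.70 ± 0.39 in hs:wnt8a embryos (adjusted p = 0.00215) and by 1.98 ± 0.37 in siblings (adjusted p = 3.88e-04); without replicate 1 at 7.5 hpf the fall in hs:wnt8a embryos was 1.94 (log2 change -1.94 ± 0.44). nanog, its partner in genome activation, was at 18, 11.0 and 9.98 CPM at 7.5 hpf, against 34.7 and 35.2 CPM at 5.5 hpf (a fall by 1.43 ± 0.49, adjusted p = 0.0261). Whether the nanog call holds on leaving out a library is not given. klf17, a regulator of the hatching gland and outer layers, was at 70.9, 87.8 and 72.1 CPM at 7.5 hpf, against 167 and 171 CPM at 5.5 hpf. It fell by 1.13 ± 0.14 (adjusted p = 2.17e-05). The 3 that rose were her3, a repressor of neurogenesis, lft2, a Nodal antagonist, and sox19b, a SoxB1 factor of early neural tissue. sox19b stood at 65.0, 91.4 and 93.2 CPM at 7.5 hpf, against 39.4 and 35.0 CPM at 5.5 hpf, with a log2 change of 1.16 ± 0.19 (adjusted p = 1.51e-04).

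Of 48 cell cycle and replication genes, 32 fell, 3 rose and 13 did not pass in hs:wnt8a embryos (median -0.66, and -0.64 in siblings). Some members, ccna1 and wee2 among them, are also in the oocyte-loaded list. The 3 that rose were ccnd2a, a D cyclin, and cdkn1ca and gadd45ab, both of which restrain division. cdt1 and cdc6 load the replicative helicase at origins. cdt1 stood at 162, 176 and 141 CPM at 7.5 hpf, against 560 and 522 CPM at 5.5 hpf, a fall by 1.76 ± 0.29 (adjusted p = 1.69e-04). cdc6 stood at 159, 177 and 156 CPM at 7.5 hpf, against 476 and 447 CPM at 5.5 hpf, a fall by 1.49 ± 0.27 (adjusted p = 3.18e-04). ccne1, the cyclin that starts DNA replication, was at 93.0, 95.5 and 81.5 CPM at 7.5 hpf, against 234 and 220 CPM at 5.5 hpf. It fell by 1.34 ± 0.22 (adjusted p = 1.60e-04) in hs:wnt8a embryos and by 1.23 ± 0.20 in siblings. In hs:wnt8a embryos the times did not overlap for cdt1, cdc6 or ccne1, as for 64.2% of all genes tested.

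Most genes of the Nodal pathway and endoderm were lower at the later time, with the foxa genes and sox17 going the other way. Of 22 tested members 15 fell, 4 rose and 3 did not pass, in hs:wnt8a embryos and in siblings alike, with medians of -1.07 and -1.0. Some members, ndr1, ndr2, lft2 and mixl1 among them, are also in the blastula list. eomesa, a T-box factor upstream of endoderm, stood at 0.362, 0.290 and 0.0507 CPM in hs:wnt8a embryos at 7.5 hpf, against 3.69 and 3.90 CPM at 5.5 hpf (a fall by 4.00 ± 0.70, adjusted p = 2.74e-04). Of the Nodal ligands, ndr1 fell by 2.60 ± 0.81 (adjusted p = 0.0155) and ndr2 by 0.90 ± 0.31 (adjusted p = 0.0263). Whether the ndr1 and ndr2 calls hold on leaving out a library is not given. sox32, which specifies endoderm, stood at 74.3, 60.9 and 40.0 CPM at 7.5 hpf, against 206 and 183 CPM at 5.5 hpf, a fall by 1.74 ± 0.33 (adjusted p = 4.83e-04). mixl1, a homeobox gene of mesendoderm, was at 13.1, 10.6 and 6.74 CPM at 7.5 hpf, against 48.1 and 60.2 CPM at 5.5 hpf, and fell by 2.42 ± 0.63 (adjusted p = 0.00529). The rising members were foxa1, foxa2, sox17 and lft2. foxa2, a pioneer factor of endoderm and axial mesoderm, stood at 83.8, 103 and 81.4 CPM at 7.5 hpf, against 34.1 and 33.5 CPM at 5.5 hpf. Its log2 change was 1.40 ± 0.22 (adjusted p = 1.04e-04) in hs:wnt8a embryos and 0.66 ± 0.18 in siblings, and the difference between these, 0.75 ± 0.28, did not pass (adjusted p = 1). sox17, an endoderm factor downstream of sox32, rose by 0.57 ± 0.16 (adjusted p = 0.00673).

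Posterior identity genes gave the largest rise of any list. The cdx and hox genes set position along the trunk and tail, and of 33 tested members 30 rose in hs:wnt8a embryos, none fell, and hoxa9b, hoxa2b and cdx4 did not pass. In siblings 32 rose and none fell. The fitted medians were 4.60 in hs:wnt8a embryos and 5.55 in siblings. Members with no count at 5.5 hpf, 8 in hs:wnt8a embryos and 11 in siblings, have a fold change that depends on the fit, and with these placed at the bound given by 3 counts over the group the medians were 3.81 and 4.42. hoxc3a stood at 42.9, 45.2 and 54.2 CPM in hs:wnt8a embryos at 7.5 hpf, against 0.627 and 0.739 CPM at 5.5 hpf. It was the largest rise among genes with a mean log2 CPM of at least 3 and non-overlapping libraries, at 6.10 ± 0.83 (adjusted p = 4.57e-05). hoxb1b, the earliest hox gene of the hindbrain and trunk, stood at 155, 116 and 97.6 CPM at 7.5 hpf, against 7.18 and 4.64 CPM at 5.5 hpf. Siblings held 116, 91.5 and 110 CPM of hoxb1b at 7.5 hpf, against 5.01, 11.0 and 5.08 CPM at 5.5 hpf. hoxb1b rose by 4.38 ± 0.81 in hs:wnt8a embryos (adjusted p = 4.40e-04) and by 3.90 ± 0.66 in siblings (adjusted p = 1.98e-04), with no overlap between times in either.

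Some posterior genes had almost no RNA at 5.5 hpf. hoxb9a had 822 counts in the 3 later hs:wnt8a libraries, or 15.4, 13.2 and 14.8 CPM, against 2 counts in both earlier ones, a ratio of 211 with a 95% exact interval of 58.1 to 1740 that covers counting error only. hoxc8a was at 10.4, 8.45 and 9.12 CPM at 7.5 hpf against 2 counts in all at 5.5 hpf (ratio 135, interval 37.3 to 1120). hoxb4a had no count at 5.5 hpf and 161 at 7.5 hpf, at least 27.5-fold higher when 3 counts over the group are taken as the floor. cdx1a, a caudal factor that activates hox genes, was at 199, 146 and 145 CPM at 7.5 hpf, against 49.7 and 42.1 CPM at 5.5 hpf (log2 change 1.83 ± 0.41, adjusted p = 0.00178). cdx4, which was already abundant, stood at 659, 575 and 460 CPM at 7.5 hpf, against 390 and 373 CPM at 5.5 hpf. These libraries did not overlap, but the log2 change of cdx4, 0.57 ± 0.24, did not pass (adjusted p = 0.0704). Without replicate 3 at 7.5 hpf it was 0.69 and passed (adjusted p = 0.0478), and it passed in edgeR with only the groups compared (0.57, adjusted p = 0.0236).

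Retinoic acid genes, which act in the same region, mostly rose: 11 of 19 tested members were higher, 2 were lower and 6 did not pass (median 0.95, and 0.84 in siblings). cyp26a1, which degrades retinoic acid, stood at 228, 324 and 295 CPM in hs:wnt8a embryos at 7.5 hpf, against 57.8 and 70 CPM at 5.5 hpf, a log2 rise of 2.14 ± 0.38 (adjusted p = 3.44e-04). rarga, a retinoic acid receptor, was at 28.5, 30.0 and 34.7 CPM at 7.5 hpf, against 5.16 and 4.17 CPM at 5.5 hpf (2.74 ± 0.46, adjusted p = 2.15e-04). dhrs3a, which turns retinal back into retinol, had 14.5, 11.7 and 15.2 CPM at 7.5 hpf against 1 count in all at 5.5 hpf, a ratio of 402 (95% exact interval 71.9 to 15900, counting error only). Both members that fell make the ligand or its precursor. aldh1a2, the enzyme that makes retinoic acid, was at 137, 153 and 138 CPM at 7.5 hpf, against 218 and 195 CPM at 5.5 hpf, and fell by 0.53 ± 0.15 (adjusted p = 0.00883). rdh10b, which makes retinal, fell by 0.95 ± 0.18 (adjusted p = 5.38e-04).

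**Figure D3:**
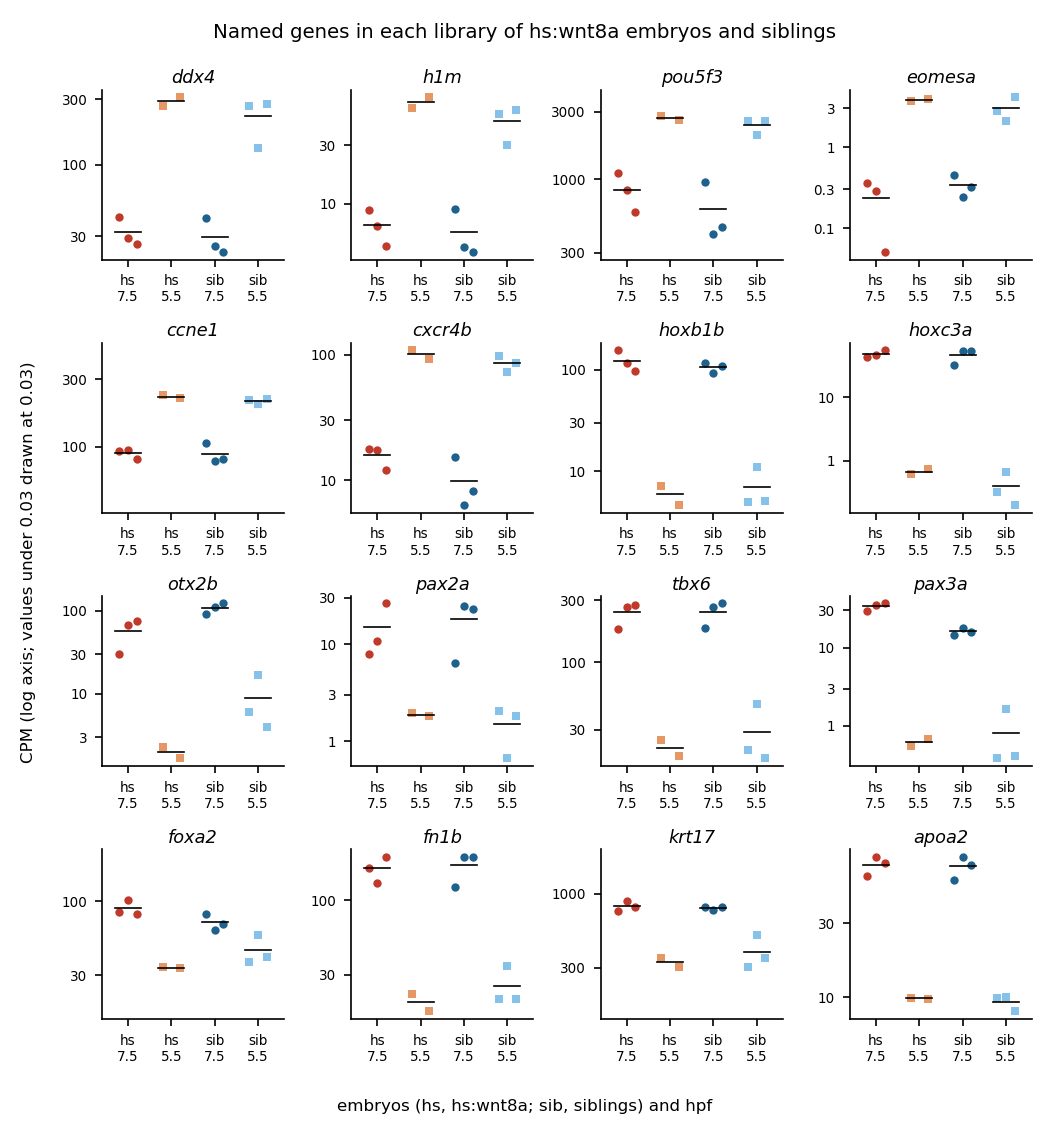
CPM on a log axis of 16 genes in each library of hs:wnt8a embryos and siblings (labelled sib) at 7.5 and 5.5 hpf, with points for libraries and lines for group means. In the hs:wnt8a embryos the 2 times do not overlap for any of the 16 genes, from falls such as ddx4 (26.2 to 41.5 CPM at 7.5 hpf, 268 and 310 CPM at 5.5 hpf) to rises such as hoxc3a. They also do not overlap for 64.2% of all tested genes, and some of the 16 were named by a rule that required no overlap.

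Genes of the midbrain and its boundary with the hindbrain rose as well. Of 15 tested members 10 rose, none fell and 5 did not pass in hs:wnt8a embryos (median 2.65), and 8 rose with none falling in siblings (median 1.39). pax8, an early gene of the boundary and of the ear and kidney fields, stood at 14.1, 16.1 and 17.3 CPM in hs:wnt8a embryos at 7.5 hpf, against 0.557 and 0.403 CPM at 5.5 hpf. Its log2 change was 5.03 ± 0.56 (adjusted p = 1.94e-05), beside 5.07 ± 0.46 in siblings. her5, a repressor that marks the prospective midbrain, stood at 47.4, 70 and 41.7 CPM in hs:wnt8a embryos at 7.5 hpf, against 7.66 and 8.54 CPM at 5.5 hpf. Siblings had 23.5, 26.6 and 30.4 CPM of her5 at 7.5 hpf, against 7.65, 6.95 and 8.13 CPM at 5.5 hpf. The hs:wnt8a libraries at 7.5 hpf all lay above those of siblings, yet the difference between the stage changes of 2.71 ± 0.32 and 1.82 ± 0.26 did not pass (0.89 ± 0.39, adjusted p = 1). pax2a, which maintains the boundary, was at 7.84, 10.8 and 26.1 CPM at 7.5 hpf, against 1.95 and 1.81 CPM at 5.5 hpf. Replicate 3 was the highest, and the rise of pax2a, 2.98 ± 0.84 (adjusted p = 0.00895), did not pass without replicate 1 at 5.5 hpf (3.06, adjusted p = 0.0675) or without replicate 2 (2.95, adjusted p = 0.0754). irx1a, an Iroquois factor of the midbrain and hindbrain, rose by 4.26 ± 0.71 (adjusted p = 2.00e-04).

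In the hindbrain list 8 of 20 tested members rose, 3 fell and 9 did not pass (median 0.55). Over all genes 21.5% were higher and 18.1% lower, and 7 members were called without replicate 1 at 5.5 hpf. In siblings 10 rose and 1 fell. The fitted median there was 0.94, or 0.37 with members lacking counts at 1 of the times placed at their bound. For hs:dkk1b siblings 13 were higher and none lower (median 1.46). meis3, a Hox cofactor, stood at 89.0, 76.8 and 84.3 CPM in hs:wnt8a embryos at 7.5 hpf, against 11.2 and 8.06 CPM at 5.5 hpf (log2 change 3.11 ± 0.52, adjusted p = 1.91e-04). meis2b, of the same family, was at 153, 151 and 135 CPM at 7.5 hpf, against 15.8 and 12.9 CPM at 5.5 hpf (3.35 ± 0.48, adjusted p = 5.91e-05). Among the 3 that fell were gbx1, which sets the anterior limit of the hindbrain, and fgf3, an FGF ligand of the hindbrain and forebrain. gbx1 stood at 52.1, 32.2 and 19.9 CPM at 7.5 hpf, against 76.6 and 64.5 CPM at 5.5 hpf, and fell by 1.02 ± 0.35 (adjusted p = 0.0268). It was not called in siblings (-0.60 ± 0.32, adjusted p = 0.142) or in hs:dkk1b siblings (-0.01 ± 0.32). The difference between the stage changes of gbx1 in hs:wnt8a embryos and siblings, -0.42 ± 0.48, did not pass. The gbx1 call was lost without 7.5 hpf replicate 2 (log2 change -0.97, adjusted p = 0.0704) or replicate 3 (-0.74, adjusted p = 0.113), and without 5.5 hpf replicate 1 (-0.88, adjusted p = 0.151) or replicate 2 (-1.13, adjusted p = 0.0657). fgf3 was at 2.59, 3.81 and 4.00 CPM in hs:wnt8a embryos at 7.5 hpf, against 11.6 and 13.5 CPM at 5.5 hpf, a fall by 1.85 ± 0.66 (adjusted p = 0.0325). Whether the fgf3 call holds on leaving out a library is not given. In siblings its libraries were 4.25, 11.2 and 11.0 CPM at 7.5 hpf, against 11.0, 8.41 and 12.3 CPM at 5.5 hpf, and overlapped.

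Genes of the general neural programme moved in both directions. Of 35 tested members 16 rose, 7 fell and 12 did not pass, beside 21.5% higher and 18.1% lower over all genes. The median was 1.16, and 0.73 in siblings, and 14 were called without replicate 1 at 5.5 hpf and 15 without replicate 2. neurog1, which commits cells to the neuronal fate, stood at 6.75, 9.46 and 9.98 CPM in hs:wnt8a embryos at 7.5 hpf, against 0.627 and 0.470 CPM at 5.5 hpf. It rose by 3.98 ± 0.48 (adjusted p = 2.32e-05) in hs:wnt8a embryos and by 4.58 ± 0.43 in siblings. dla, a Delta ligand of newborn neurons, was at 52.5, 65.9 and 77.8 CPM at 7.5 hpf, against 16.8 and 18.6 CPM at 5.5 hpf (1.89 ± 0.33, adjusted p = 2.86e-04). zic5, a zinc-finger factor of the dorsal neural tissue, rose by 2.23 ± 0.36 (adjusted p = 1.54e-04). sox3, a SoxB1 factor of neural progenitors, stood at 152, 127 and 94.4 CPM at 7.5 hpf, against 198 and 189 CPM at 5.5 hpf. Its log2 change of -0.64 ± 0.26 was just outside the threshold (adjusted p = 0.0567), and it passed without replicate 1 at 7.5 hpf (-0.80, adjusted p = 0.0316). With no library left out of these groups, sox3 passed under upper-quartile scaling (adjusted p = 0.0484) and in DESeq2 (0.0445). It also passed in edgeR with only the groups compared (0.0263) and with the replicate number as a block (0.0142).

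At the neural plate border 10 of 25 tested crest and placode genes rose, 2 fell and 13 did not pass. The shares over all genes were 21.5% higher and 18.1% lower. The median was 0.64, and 0.98 in siblings, and 6 members were called without replicate 2 at 5.5 hpf. pax3a, a border gene required for crest, stood at 29.7, 35.6 and 36.9 CPM in hs:wnt8a embryos at 7.5 hpf, against 0.557 and 0.672 CPM at 5.5 hpf. Siblings held 14.7, 18.1 and 16.1 CPM of pax3a at 7.5 hpf, against 0.386, 1.65 and 0.407 CPM at 5.5 hpf. Each hs:wnt8a library at 7.5 hpf lay above each sibling one, with log2 rises of 5.77 ± 0.71 (adjusted p = 2.40e-05) and 4.29 ± 0.55 (adjusted p = 2.06e-05) and no called difference between them (1.48 ± 0.89, adjusted p = 1). dlx3b, which marks the placode field, was at 130, 102 and 89.0 CPM at 7.5 hpf, against 6.69 and 6.59 CPM at 5.5 hpf (4.01 ± 0.84, adjusted p = 0.00112). Outside the list, kctd15a, known to hold back crest formation, was at 88.7, 76.1 and 96.3 CPM at 7.5 hpf, against 3.34 and 4.23 CPM at 5.5 hpf (4.52 ± 0.57, adjusted p = 2.87e-05). The 2 members that fell were foxd3, a crest and blastula factor, and crestin. foxd3 fell by 0.92 ± 0.23 (adjusted p = 0.00366). crestin stood at 15.7, 11.35 and 10.1 CPM at 7.5 hpf, against 38.8 and 48.1 CPM at 5.5 hpf (log2 change -1.81 ± 0.26, adjusted p = 6.74e-05).

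The anterior neural plate and eye field was where the stage changes of hs:wnt8a embryos and siblings lay furthest apart. In hs:wnt8a embryos 6 of 20 tested members rose, 1 fell and 13 did not pass. Over all genes 39.6% were called, 21.5% higher and 18.1% lower. The fitted median of the list was 1.17, or 0.91 with the member lacking counts at 1 of the times placed at its bound. In siblings 13 rose, none fell and 7 did not pass (median 3.28), beside 21.8% higher and 18.4% lower over all genes. In hs:dkk1b siblings 11 rose, 5 fell and 4 did not pass (median 2.05), beside 15.6% higher and 15.4% lower. The summed level of the list was 373.2 to 408.3 CPM in hs:wnt8a embryos at 7.5 hpf, against 344.8 to 376.1 CPM at 5.5 hpf, and 1032 to 1194 CPM in siblings at 7.5 hpf, against 423.9 to 643.9 CPM at 5.5 hpf. The difference between the stage changes had a median of -1.22 log2 units over the list beside 0.02 over all genes. An unadjusted p below 0.05 was found for 3 of its 20 members, beside 340 of 19504 genes. That count did not set the list apart, being 3 of 15 for the midbrain, 3 of 20 for the hindbrain and 3 of 19 for retinoic acid genes.

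The difference between the 2 stage changes passed the threshold for 1 gene of 19504 (0.00513%) in edgeR, which was lower in hs:wnt8a embryos, with none higher (0.00%), and for 4 in DESeq2, while 340 genes had an unadjusted p below 0.05 in edgeR. The edgeR call was six3b, a homeobox gene that sets up the forebrain and eye by repressing Wnt genes. six3b stood at 6.81, 6.38 and 4.05 CPM in hs:wnt8a embryos at 7.5 hpf, against 4.53 and 5.24 CPM at 5.5 hpf, and at 59.2, 78.7 and 80.6 CPM in siblings at 7.5 hpf, against 8.87, 7.86 and 7.45 CPM at 5.5 hpf. The times overlapped in hs:wnt8a embryos and stood well apart in siblings. Its stage change was 0.23 ± 0.31 in hs:wnt8a embryos (adjusted p = 0.58) and 3.17 ± 0.27 in siblings (adjusted p = 9.60e-07), a difference of -2.94 ± 0.40 (adjusted p = 0.00946). In hs:dkk1b siblings, whose libraries hold little wnt8a_1, six3b stood at 64.6, 43.1 and 70 CPM at 7.5 hpf, against 8.36, 6.55 and 10.3 CPM at 5.5 hpf. It rose by 2.82 ± 0.27 there, and the difference from hs:wnt8a embryos was -2.59 (adjusted p = 0.0104), in a comparison across crosses with unlike heat shocks that called 45 genes. Without either hs:wnt8a library at 5.5 hpf the difference remained near this size (-3.05 and -2.84) but did not pass (adjusted p = 0.0689 and 0.22), and it did not pass without sibling replicate 3 at 5.5 hpf (-2.89, adjusted p = 0.0589).

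Further genes differed in sign or size without passing this test in the edgeR fit of all 23 libraries with group terms only. six7, a paralogue of six3b, stood at 6.39, 3.67 and 4.56 CPM in hs:wnt8a embryos at 7.5 hpf, against 6.69 and 7.26 CPM at 5.5 hpf. Siblings held 180, 233 and 233 CPM of six7 at 7.5 hpf, against 13.8, 22.2 and 10.9 CPM at 5.5 hpf. The stage change of six7 was -0.53 ± 0.59 in hs:wnt8a embryos (adjusted p = 0.5) and 3.78 in siblings (adjusted p = 3.24e-05). The difference, -4.30 ± 0.76, had an adjusted p of 0.142 in edgeR and passed in DESeq2 (adjusted p = 4.35e-04). It also passed in edgeR with only the groups compared (adjusted p = 0.00697) and with the replicate number as a block (adjusted p = 0.0329). Samples with the same replicate number deviated together between hs:wnt8a embryos and siblings at 7.5 hpf (r of 0.818, 0.332 and 0.767) but not at 5.5 hpf. Replicates 2 and 3 at 7.5 hpf correlated at least as well across numbers, with r of 0.389 for hs:wnt8a replicate 2 with sibling replicate 3 and 0.791 for hs:wnt8a replicate 3 with sibling replicate 2, so the correlations set replicate 1 apart from the other 2 and do not tell those 2 numbers apart. With the replicate number within each time as a block, an alternative chosen after seeing the data, 19 genes passed, 9 upward and 10 downward. Those downward included six3b, six7, fzd8a, gsc, sox2, fgf3, tdgf1, arr3b, he1.1 and asb11. Those upward included her3, odf3l2a, slc6a16a, rab7b and pkdccb.

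fzd8a, a Frizzled receptor of the anterior neural plate, stood at 18.8, 28.9 and 24.4 CPM in hs:wnt8a embryos at 7.5 hpf, against 53.4 and 50.6 CPM at 5.5 hpf. In siblings it stood at 81.9, 80.0 and 82.1 CPM at 7.5 hpf, against 78.1, 89.9 and 69.3 CPM at 5.5 hpf. fzd8a fell by 1.11 ± 0.15 in hs:wnt8a embryos (adjusted p = 5.18e-05), its sibling times overlapped (0.04, adjusted p = 0.841), and the difference of -1.15 ± 0.21 had an adjusted p of 0.142. That difference passed in DESeq2 (adjusted p = 0.00129) and without hs:wnt8a replicate 2 at 7.5 hpf (-1.31, adjusted p = 0.04). In hs:dkk1b siblings fzd8a also fell, with a log2 change of -0.42 ± 0.14 (adjusted p = 0.0257). hesx1, a forebrain and pituitary repressor, was the only member of the anterior list called lower in hs:wnt8a embryos. It was at 11.2, 10.4 and 12.5 CPM in hs:wnt8a embryos at 7.5 hpf, against 23.6 and 25.4 CPM at 5.5 hpf. It fell by 1.11 ± 0.16 (adjusted p = 6.74e-05), while siblings gave -0.16 (adjusted p = 0.386). The difference between these stage changes, -0.95 ± 0.22, did not pass (adjusted p = 0.818). hesx1 was also called lower in hs:dkk1b siblings, at -0.43 ± 0.14 (adjusted p = 0.0266). sox2, a SoxB1 factor of neural progenitors, was at 29.6, 42.8 and 41.8 CPM in hs:wnt8a embryos at 7.5 hpf, against 102 and 90.8 CPM at 5.5 hpf. Siblings held 89.6, 98.1 and 107 CPM of sox2 at 7.5 hpf, against 119, 111 and 103 CPM at 5.5 hpf. sox2 fell by 1.34 ± 0.19 in hs:wnt8a embryos (adjusted p = 5.79e-05), and the difference of -1.16 ± 0.26 did not pass (adjusted p = 0.674).

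Some anterior genes rose in hs:wnt8a embryos. otx2b, which defines the forebrain and midbrain, stood at 30.1, 66.3 and 74.4 CPM in hs:wnt8a embryos at 7.5 hpf, against 2.30 and 1.68 CPM at 5.5 hpf. In siblings it stood at 91.5, 110 and 122 CPM at 7.5 hpf, against 5.98, 17.0 and 4.00 CPM at 5.5 hpf. The hs:wnt8a libraries of otx2b lay below those of siblings at both times without overlap, and otx2b rose by 4.84 ± 0.75 in hs:wnt8a embryos (adjusted p = 1.14e-04) and by 3.58 ± 0.56 in siblings (adjusted p = 9.40e-05). otx1, its paralogue, was at 51.0, 63.1 and 59.5 CPM in hs:wnt8a embryos at 7.5 hpf, against 19.7 and 20.3 CPM at 5.5 hpf, and rose by 1.53 ± 0.35, beside 1.57 ± 0.30 in siblings. Neither otx gene was called in hs:dkk1b siblings, where otx2b gave 1.19 ± 0.50 (adjusted p = 0.0772) and otx1 0.05 ± 0.29 (adjusted p = 0.912). Those siblings already held 50.7, 15.7 and 54.0 CPM of otx2b at 5.5 hpf. pax6b, an eye and forebrain factor, had 4.88, 5.55 and 11.2 CPM in hs:wnt8a embryos at 7.5 hpf, against 0.139 and 0.739 CPM at 5.5 hpf, a rise by 4.00 ± 0.82 (adjusted p = 9.30e-04). Siblings reached 38.7, 71.0 and 65.7 CPM of pax6b at 7.5 hpf, so the rise in hs:wnt8a embryos ended well below theirs. Unlike the otx genes, pax6b was also called higher in hs:dkk1b siblings, at 2.89 ± 0.51 (adjusted p = 4.40e-04).

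rx3, required for the eye field, had 1.45, 2.32 and 2.33 CPM in hs:wnt8a embryos at 7.5 hpf, against a single count in both libraries at 5.5 hpf. That is a ratio of 60.5 (95% exact interval 10.6 to 2410, counting error only), and the test called it (adjusted p = 0.00695) but not without replicate 1 at 5.5 hpf (adjusted p = 0.0697). In siblings rx3 was at 39.4, 59.3 and 63.8 CPM at 7.5 hpf. fezf2, a forebrain repressor, showed no such onset in hs:wnt8a embryos, with 0.181, 0.628 and 0.659 CPM at 7.5 hpf, against 0.279 and 0.0672 CPM at 5.5 hpf. Siblings held 35.2, 57.0 and 56.7 CPM of fezf2 at 7.5 hpf, against 0.514, 1.22 and 0.407 CPM at 5.5 hpf. The fezf2 stage change was 1.52 ± 1.98 in hs:wnt8a embryos (adjusted p = 0.568) and 6.09 ± 0.98 in siblings (adjusted p = 1.22e-04), but at these counts the difference of -4.57 had a standard error of 3.09 and an adjusted p of 1. lhx2b, an eye and forebrain factor, had 4 counts in the 3 hs:wnt8a libraries at 7.5 hpf, against 1 in both at 5.5 hpf, a ratio of 2.05 (interval 0.203 to 101.0). Siblings held 692 counts of lhx2b at 7.5 hpf, against 1 at 5.5 hpf, a ratio of 519 (interval 92.9 to 20500).

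**Figure D4:**
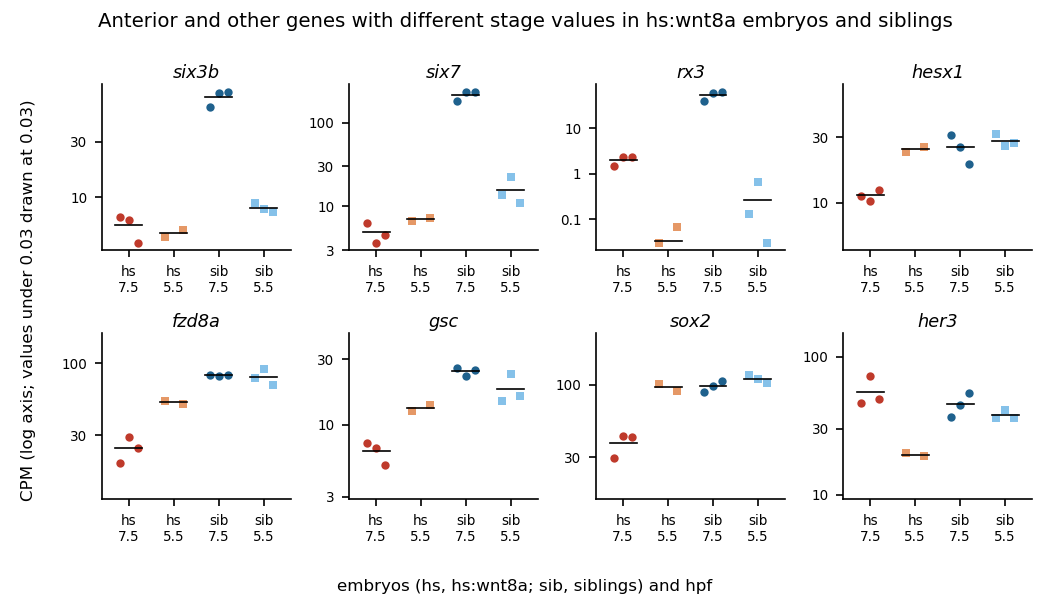
CPM on a log axis of 8 genes in each library of hs:wnt8a embryos and siblings (labelled sib) at 7.5 and 5.5 hpf, with points for libraries and lines for group means. six3b and six7 stand high only in sibling libraries at 7.5 hpf, rx3 at 7.5 hpf lies between 1.45 and 2.33 CPM in hs:wnt8a embryos and between 39.4 and 63.8 CPM in siblings, and hesx1, fzd8a, gsc and sox2 are lower at 7.5 hpf in hs:wnt8a embryos.

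Dorsal organizer, notochord and prechordal genes were divided. Of 31 tested members 11 rose, 5 fell and 15 did not pass, beside 21.5% higher and 18.1% lower over all genes. The median was 0.18, and 0.43 in siblings, and 9 were called without replicate 2 at 5.5 hpf. fsta, the activin-binding protein follistatin, stood at 56.9, 65.8 and 76.2 CPM in hs:wnt8a embryos at 7.5 hpf, against 1.81 and 1.88 CPM at 5.5 hpf (log2 change 5.16 ± 0.88, adjusted p = 2.38e-04). ctslb_4, one of several identifiers of a cathepsin of the hatching gland whose reads may be split among copies, was at 47.4, 170 and 188 CPM at 7.5 hpf, against 3.55 and 3.83 CPM at 5.5 hpf. Replicate 1 was the lowest of the later libraries, and ctslb_4 rose by 5.19 ± 0.89 (adjusted p = 2.33e-04), or by 5.6 ± 0.85 without it. shhb, a hedgehog ligand of the axial midline, was at 22.4, 25.7 and 25 CPM at 7.5 hpf, against 1.53 and 1.48 CPM at 5.5 hpf (4.01 ± 0.53, adjusted p = 3.56e-05). gsc, the organizer repressor goosecoid, stood at 7.42, 6.81 and 5.12 CPM in hs:wnt8a embryos at 7.5 hpf, against 12.7 and 14.0 CPM at 5.5 hpf. Siblings held 26.0, 22.5 and 24.8 CPM of gsc at 7.5 hpf, against 14.8, 23.5 and 16.1 CPM at 5.5 hpf. gsc fell by 1.05 ± 0.30 in hs:wnt8a embryos (adjusted p = 0.0103; 0.0761 without replicate 2 at 5.5 hpf) and gave 0.43 in siblings (adjusted p = 0.205), with a difference of -1.48 ± 0.40 (adjusted p = 1). tbxta, the Brachyury factor of notochord and mesoderm, was at 280, 177 and 146 CPM at 7.5 hpf, against 432 and 415 CPM at 5.5 hpf, and fell by 1.08 ± 0.34 (adjusted p = 0.0169), a call lost without either 5.5 hpf library (adjusted p = 0.0792 and 0.0657) or without 7.5 hpf replicate 2 (0.0551) or 3 (0.0727). noto, the notochord homeobox gene, stood at 42.8, 52.4 and 33.0 CPM at 7.5 hpf, against 44.3 and 46.6 CPM at 5.5 hpf, which overlap (-0.09 ± 0.21, adjusted p = 0.758).

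Of 34 paraxial and tailbud genes tested 15 rose, 9 fell and 10 did not pass, beside 21.5% higher and 18.1% lower over all genes. The median was 0.07, and 0.04 in siblings. Later presomitic and muscle genes were among those that rose. tbx6, a T-box factor of presomitic mesoderm, stood at 182, 267 and 276 CPM in hs:wnt8a embryos at 7.5 hpf, against 24.9 and 18.8 CPM at 5.5 hpf (log2 change 3.47 ± 0.63, adjusted p = 3.52e-04). myf5, a myogenic factor, was at 29.8, 41.0 and 34.0 CPM at 7.5 hpf, against 7.73 and 4.91 CPM at 5.5 hpf. It rose by 2.47 ± 0.31 in hs:wnt8a embryos (adjusted p = 2.52e-05) and by 2.47 ± 0.26 in siblings. tcf15, a somite factor, was at 7.12, 14.1 and 14.6 CPM at 7.5 hpf, against 1.04 and 0.470 CPM at 5.5 hpf (3.97 ± 0.51, adjusted p = 3.04e-05). msgn1, which drives cells out of the tailbud progenitor state, stood at 236, 195 and 198 CPM at 7.5 hpf, against 142 and 122 CPM at 5.5 hpf, and rose by 0.67 ± 0.17 (adjusted p = 0.00441; 0.0696 without replicate 2 at 5.5 hpf). tbx16, a T-box factor of early mesoderm, fell by 1.48 ± 0.26 (adjusted p = 3.38e-04) to 444, 358 and 282 CPM at 7.5 hpf, against 1052 and 958 CPM at 5.5 hpf. mespaa, expressed in nascent mesoderm and later in somite boundaries, fell by 2.7 ± 0.52 (adjusted p = 6.04e-04) to 6.09, 6.08 and 2.23 CPM at 7.5 hpf, against 33.9 and 28.6 CPM at 5.5 hpf.

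Lateral plate and blood genes numbered 12, of which 3 rose, 3 fell and 6 did not pass (median -0.37), near the 21.5% higher and 18.1% lower over all genes. Those that rose were hand2, a heart and fin factor, hapln1b, a matrix link protein, and npas4l, which starts the endothelial lineage. hapln1b stood at 24.5, 29.4 and 36 CPM in hs:wnt8a embryos at 7.5 hpf, against 2.58 and 3.63 CPM at 5.5 hpf (log2 change 3.27 ± 0.70, adjusted p = 0.00136). drl, an early lateral plate marker, was at 48.7, 38.0 and 35.3 CPM at 7.5 hpf, against 165 and 183 CPM at 5.5 hpf, and fell by 2.1 ± 0.42 (adjusted p = 8.28e-04). tal1 and osr1 also fell, the first a blood factor and the other a factor of ventral mesoderm. tal1 was at 0.121, 0.483 and 0.0507 CPM at 7.5 hpf, against 2.299 and 2.285 CPM at 5.5 hpf. In hs:dkk1b siblings tal1 was not called (0.69 ± 0.88, adjusted p = 0.585) and stood at 0.0733, 0.4585 and 0.244 CPM at 5.5 hpf.

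Wnt feedback genes were called about as often as all genes. Of 26 tested members 4 rose, 5 fell and 17 did not pass in hs:wnt8a embryos, near the 21.5% higher and 18.1% lower over all genes (median -0.20, and 0.05 in siblings), and 3 were called without either 5.5 hpf library. axin2, the negative feedback regulator of beta-catenin, stood at 287, 176 and 112 CPM in hs:wnt8a embryos at 7.5 hpf, against 257 and 238 CPM at 5.5 hpf. In siblings axin2 stood at 174, 93.6 and 122 CPM at 7.5 hpf, against 148, 141 and 172 CPM at 5.5 hpf. The times overlapped in both kinds of embryo, and the axin2 stage change in hs:wnt8a embryos was -0.37 ± 0.30 (adjusted p = 0.34). sp5a, a direct Wnt target, was at 264, 123 and 84.1 CPM at 7.5 hpf, against 232 and 207 CPM at 5.5 hpf (-0.48 ± 0.38, adjusted p = 0.325). For axin2 and sp5a replicate 1 at 7.5 hpf was the highest library, and without it both passed, axin2 at -0.78 (adjusted p = 0.0325) and sp5a at -1.08 (adjusted p = 0.0173).

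Among the members of the Wnt feedback list that rose, tcf7, a nuclear effector of the pathway, stood at 15.9, 16.4 and 16.2 CPM in hs:wnt8a embryos at 7.5 hpf, against 7.66 and 5.44 CPM at 5.5 hpf (log2 change 1.30 ± 0.20, adjusted p = 1.02e-04). znrf3, a ligase that removes Frizzled receptors, rose by 1.2 ± 0.33 (adjusted p = 0.00764; 0.0573 and 0.0588 without 5.5 hpf replicate 1 and 2). notum1a, an enzyme that inactivates Wnt ligands, stood at 57.2, 55.4 and 60.9 CPM at 7.5 hpf, against 126 and 108 CPM at 5.5 hpf. It fell by 1.02 ± 0.33 (adjusted p = 0.0188; 0.123 and 0.0561 without 5.5 hpf replicate 1 and 2). Among 11 tested antagonists 2 rose, 2 fell and 7 did not pass, near the 39.6% called over all genes. wif1, a secreted Wnt inhibitor, rose by 2.49 ± 0.49 (adjusted p = 6.80e-04), and frzb, another, stood at 125, 167 and 150 CPM at 7.5 hpf, against 61.2 and 71.5 CPM at 5.5 hpf (1.15 ± 0.24, adjusted p = 0.00117). sostdc1a, a BMP and Wnt antagonist, fell by 1.90 ± 0.43 (adjusted p = 0.00182).

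Of 27 tested Wnt ligands and receptors, 10 rose, 4 fell and 13 did not pass, beside 21.5% higher and 18.1% lower over all genes. The median was 0.25, and 0.34 in siblings. wnt8b, a ligand of the brain primordium, stood at 48.7, 29.6 and 20.7 CPM in hs:wnt8a embryos at 7.5 hpf, against 1.6 and 1.21 CPM at 5.5 hpf. Siblings held 17.2, 11.9 and 15.4 CPM of wnt8b at 7.5 hpf, against 0.964, 0.914 and 1.35 CPM at 5.5 hpf. Replicate 1 was the highest hs:wnt8a library, and every hs:wnt8a library at 7.5 hpf lay above every sibling one. wnt8b rose by 4.55 ± 0.70 in hs:wnt8a embryos (adjusted p = 1.04e-04) and by 3.78 ± 0.58 in siblings (adjusted p = 9.05e-05), with no called difference (0.77 ± 0.86, adjusted p = 1). Without replicate 1 at 7.5 hpf the rise of wnt8b in hs:wnt8a embryos was 4.16 ± 0.70. wnt11, the ligand of gastrulation movements, was at 79.2, 70 and 48.1 CPM at 7.5 hpf, against 215 and 192 CPM at 5.5 hpf, and fell by 1.63 ± 0.29 (adjusted p = 3.37e-04). fzd10, a Frizzled receptor, rose by 1.41 ± 0.25 (adjusted p = 2.69e-04).

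Of 29 tested BMP and ventral genes 8 rose, 11 fell and 10 did not pass, beside 21.5% higher and 18.1% lower over all genes. The median was -0.06, and 11 were called without replicate 1 at 5.5 hpf. Siblings had 6 higher and 8 lower, while hs:dkk1b siblings had 9 higher and 3 lower. bmp7a, a ventral ligand, stood at 104, 67.9 and 54.6 CPM in hs:wnt8a embryos at 7.5 hpf, against 326 and 358 CPM at 5.5 hpf, and fell by 2.18 ± 0.25 (adjusted p = 1.94e-05). It fell by 1.61 ± 0.23 in siblings, while its change in hs:dkk1b siblings, -0.55 ± 0.23, did not pass (adjusted p = 0.0733). eve1, a ventral homeobox gene, was at 55.3, 24.2 and 15.6 CPM in hs:wnt8a embryos at 7.5 hpf, against 158 and 168 CPM at 5.5 hpf, and fell by 2.36 ± 0.46 (adjusted p = 6.39e-04). The log2 change of eve1 was -1.97 ± 0.43 in siblings and -1.3 ± 0.42 in hs:dkk1b siblings. Epidermal and feedback genes were among those that rose. tp63, the factor of epidermal progenitors, was at 92.3, 55.4 and 66.0 CPM at 7.5 hpf, against 12.2 and 12.0 CPM at 5.5 hpf (log2 change 2.55 ± 0.47, adjusted p = 4.38e-04). bambib, a decoy BMP receptor, rose by 1.59 ± 0.32 (adjusted p = 7.63e-04). Of 24 tested FGF ligands and feedback genes 5 rose, 8 fell and 11 did not pass (median -0.22), beside 21.5% higher and 18.1% lower over all genes. fgfr4, a receptor, stood at 536, 547 and 537 CPM at 7.5 hpf, against 314 and 323 CPM at 5.5 hpf (0.76 ± 0.13, adjusted p = 1.93e-04), and etv5b, a target of the pathway, fell by 0.85 ± 0.14 (adjusted p = 1.83e-04).

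Genes of cell movement and adhesion were called in both directions. Of 22 planar polarity and convergence genes 3 rose, 7 fell and 12 did not pass (median 0.09), beside 39.6% of all genes called, and 6 were called without replicate 1 at 5.5 hpf or without replicate 3 at 7.5 hpf. celsr1b, a core polarity cadherin, stood at 32.6, 27.8 and 51.9 CPM in hs:wnt8a embryos at 7.5 hpf, against 4.46 and 5.38 CPM at 5.5 hpf (log2 change 2.93 ± 0.45, adjusted p = 1.02e-04). ptk7a, a polarity receptor, was at 304, 223 and 222 CPM at 7.5 hpf, against 454 and 382 CPM at 5.5 hpf, and fell by 0.75 ± 0.16 (adjusted p = 0.00158). Of 28 matrix, adhesion and migration genes 7 rose, 13 fell and 8 did not pass, beside 21.5% higher and 18.1% lower over all genes. The median was -0.39. fn1b, a fibronectin, stood at 167, 131 and 202 CPM at 7.5 hpf, against 21.9 and 16.6 CPM at 5.5 hpf, and rose by 3.12 ± 0.53 (adjusted p = 2.34e-04). itga5, a subunit of the fibronectin receptor, went the other way, at 81.6, 80.7 and 80.3 CPM at 7.5 hpf, against 242 and 236 CPM at 5.5 hpf, a fall by 1.56 ± 0.16 (adjusted p = 1.20e-05). has2, which makes hyaluronan, fell by 1.43 ± 0.28 (adjusted p = 5.72e-04), and cdh11, a mesenchymal cadherin outside the list, rose by 4.69 ± 0.65 (adjusted p = 5.18e-05).

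Genes of the outer cell layers and the yolk layer changed to a like extent in hs:wnt8a embryos and siblings. Among 32 enveloping layer keratins and barrier genes 16 rose, 8 fell and 8 did not pass (median 0.42, and 0.29 in siblings). krt17, a keratin, stood at 763, 895 and 811 CPM in hs:wnt8a embryos at 7.5 hpf, against 353 and 303 CPM at 5.5 hpf (log2 change 1.33 ± 0.21, adjusted p = 1.41e-04). krt4, the keratin that defines the layer, was at 6012, 6518 and 6049 CPM at 7.5 hpf, against 5008 and 4868 CPM at 5.5 hpf. The 2 times of krt4 did not overlap but were close, and its change of 0.33 ± 0.12 (adjusted p = 0.0336) was not called without either 5.5 hpf library (adjusted p = 0.0968 and 0.138) or without 7.5 hpf replicate 2 (0.0923) or 3 (0.0535). epcam, an epithelial adhesion molecule, fell by 1.27 ± 0.24 (adjusted p = 4.79e-04). Of 21 yolk syncytial layer genes 10 rose, 5 fell and 6 did not pass (median 0.48, and 0.63 in siblings). apoa2, an apolipoprotein, was at 60.9, 80.5 and 73.7 CPM at 7.5 hpf, against 9.89 and 9.81 CPM at 5.5 hpf (2.86 ± 0.36, adjusted p = 2.99e-05). mttp, which loads lipid onto lipoproteins, was at 379, 431 and 370 CPM at 7.5 hpf, against 862 and 822 CPM at 5.5 hpf, and fell by 1.1 ± 0.14 (adjusted p = 3.07e-05).

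Ribosomal protein genes rose together and by a small amount. The list was defined by names that begin with rpl or rps and a number, a pattern that also takes S6 kinases and rps19bp1. Of 86 tested members 76 rose, 1 fell and 9 did not pass, and without the kinases and rps19bp1 71 of 75 rose, none fell and 4 did not pass, with a median log2 change of 0.76, beside 0.58 in siblings and 0.05 over all genes in hs:wnt8a embryos. rpl35a, a large subunit protein, stood at 296, 358 and 306 CPM in hs:wnt8a embryos at 7.5 hpf, against 141 and 168 CPM at 5.5 hpf (1.05 ± 0.13, adjusted p = 2.45e-05). The member that fell was rps6ka2, a kinase.

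Heat-shock chaperones were lower in sum at 7.5 hpf in hs:wnt8a embryos, and most members did not pass. Of 29 tested members 1 rose, 3 fell and 25 did not pass, beside 39.6% of all genes called. The median was -0.33, and -0.32 in siblings. Calls numbered 2, 1 and 2 without replicate 1 at 5.5 hpf, replicate 2 at 5.5 hpf and replicate 3 at 7.5 hpf. Their summed level was 35420 to 51020 CPM in hs:wnt8a embryos at 7.5 hpf, against 68900 to 70060 CPM at 5.5 hpf, and 31960 to 51130 CPM in siblings at 7.5 hpf, against 49110 to 64810 CPM at 5.5 hpf. The 2 times did not overlap in this sum in hs:wnt8a embryos and overlapped in siblings, and its part in the stage changes was not tested. hsp70l, the inducible Hsp70, stood at 296, 543 and 226 CPM in hs:wnt8a embryos at 7.5 hpf, against 341 and 322 CPM at 5.5 hpf, which overlap (0.10 ± 1.25, adjusted p = 0.96). dnajb1b, its co-chaperone, was at 970, 718 and 291 CPM at 7.5 hpf, against 3493 and 3921 CPM at 5.5 hpf. It fell by 2.49 ± 0.96 (adjusted p = 0.0459), and that call was lost on leaving out any 1 of the 5 libraries (adjusted p of 0.107, 0.134, 0.0542, 0.0911 and 0.141 without 5.5 hpf replicates 1 and 2 and 7.5 hpf replicates 1 to 3). hspa8, the constitutive Hsc70, fell by 0.73 ± 0.22 (adjusted p = 0.0118), with adjusted p of 0.0643 and 0.0543 without 5.5 hpf replicates 1 and 2 and 0.0574 without 7.5 hpf replicate 3. In hs:dkk1b siblings, which had another heat shock, 2 chaperones rose, 2 fell and 25 did not pass (median 0.29). There dnajb1b gave 0.28 ± 0.86 (adjusted p = 0.835) and hspa8 gave 0.12 ± 0.19 (adjusted p = 0.662).

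**Figure D5:**
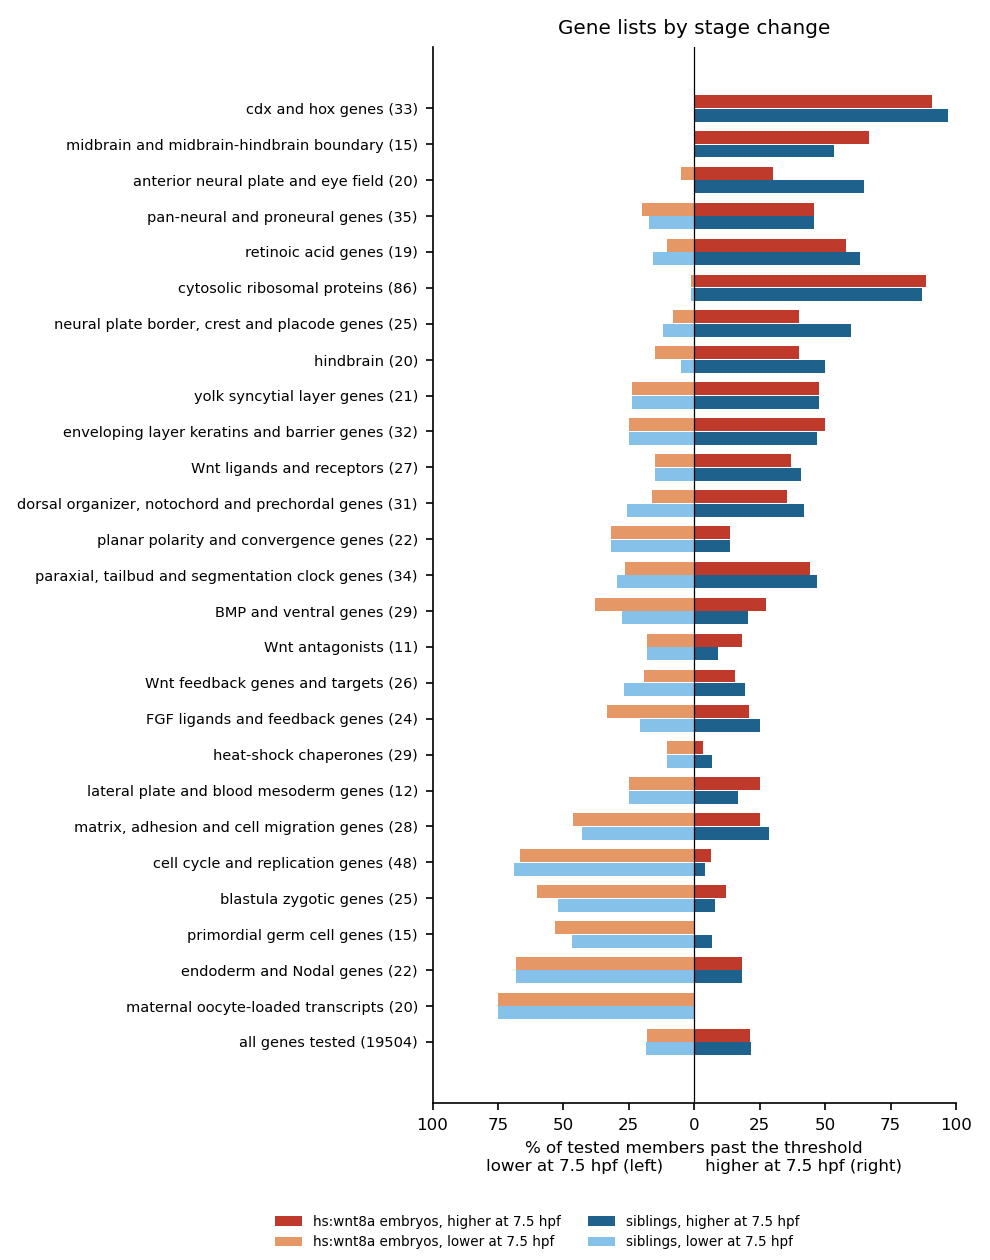
Share of tested members of each gene list past an adjusted p of 0.05 and higher (right) or lower (left) at 7.5 than at 5.5 hpf, in hs:wnt8a embryos (upper bar) and siblings (lower bar), with the number tested in brackets and all 19504 genes in the last row. The 2 bars of a list are alike for the maternal, cell cycle, endoderm and hox lists, while in the anterior neural plate and eye field 6 of 20 members rose in hs:wnt8a embryos and 13 of 20 in siblings.

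The genes with the largest changes in hs:wnt8a embryos, taken among those with a mean log2 CPM of at least 3 and no overlap between times, included several outside these lists. selenop, a selenium carrier, stood at 26.5, 138 and 123 CPM at 7.5 hpf, against 3.48 and 3.56 CPM at 5.5 hpf, with replicate 1 the lowest of the later libraries (log2 change 4.76 ± 0.89, adjusted p = 4.43e-04, and 5.21 ± 0.81 without it). fabp2, an intestinal fatty acid binding protein, was at 138, 230 and 204 CPM at 7.5 hpf, against 10.2 and 8.06 CPM at 5.5 hpf (4.38 ± 0.71, adjusted p = 1.57e-04). serpina1l, a protease inhibitor, rose by 4.53 ± 0.89, and plxdc2, a membrane protein, by 4.37 ± 0.75. The deepest fall was that of acsf2, an acyl-CoA synthetase, at 5.25, 3.48 and 2.03 CPM at 7.5 hpf, against 97.2 and 113 CPM at 5.5 hpf (a fall by 4.88 ± 0.72, adjusted p = 7.82e-05). sagb, a rod arrestin, was at 1.75, 3.52 and 2.74 CPM at 7.5 hpf, against 58.2 and 68.2 CPM at 5.5 hpf, and fell by 4.55 ± 0.52 (adjusted p = 1.94e-05). At 5.5 hpf sagb stood at 43.05, 12.1 and 60.9 CPM in siblings but at 4.69, 7.40 and 3.53 CPM in hs:dkk1b siblings. Its log2 change in hs:dkk1b siblings was -1.49 ± 0.50 (adjusted p = 0.0284). cat, the catalase gene, was at 8.74, 6.08 and 4.61 CPM at 7.5 hpf, against 82.6 and 77.6 CPM at 5.5 hpf, and fell by 3.63 ± 0.52 (adjusted p = 6.25e-05). Further falls of this rank were those of bcas3 (by 4.27 ± 0.52), tnikb (by 3.31 ± 0.51), a kinase, and mid1ip1a (by 3.38 ± 0.57). All of these 10 genes changed in the same direction in siblings.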

How the data were processed

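RNA-seq of total RNA from whole zebrafish embryos was deposited as 1 table per library for 23 libraries in 8 groups. Each table holds whole-number counts per gene and a TPM value that the authors computed from them, and the deposited counts were used for every result. edgeR and the GRCz11 assembly are named in the submitters' processing notes, and the aligner, counter, strand setting and annotation version were each not given in the sources used here. Without a strand setting, reads of overlapping antisense genes cannot be told apart. A numbered name such as wnt8a_1, used where more than 1 identifier carries a symbol, is borne by 3944 identifiers.

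All 23 libraries entered 1 edgeR 4.0.16 quasi-likelihood fit (R 4.3.3) with a term per group, TMM scaling and filterByExpr (minimum count 10, minimum total 15), which kept 19504 of 31743 genes. Contrasts were 7.5 against 5.5 hpf in hs:wnt8a embryos, in their siblings and in hs:dkk1b siblings, and the difference between the first 2. p-values were adjusted by Benjamini-Hochberg over all genes tested, with a threshold of 0.05. Standard errors were obtained from each fold change and its F statistic, as the estimate over the root of F. The scripts were tested on simulated data. DESeq2 1.42.0, other scalings and filters, a replicate block and the omission of each library were tried as alternatives.

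Total counts of all libraries ran from 13845788 to 20467185. Ratios of counts near 0 have 95% exact intervals that cover counting error only, and a group with no count was placed at 3 counts.

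Same-numbered samples of hs:wnt8a embryos and siblings at 7.5 hpf deviated together over 9012 genes (r of 0.818, 0.332 and 0.767), but replicates 2 and 3 did so as well across numbers (0.389 and 0.791). This rests on the data, since no label says that a number marks a clutch, and same-numbered samples at 7.5 and 5.5 hpf did not do so. With 2 hs:wnt8a libraries at 5.5 hpf, whose deviations mirror each other, correlations with those libraries cannot decide whether numbers mark pairs.

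The comparisons, the 26 gene lists (691 genes, 14 symbols unmatched) and the rule for named genes were chosen with earlier results of these data known. The rule took the 12 largest rises and falls with no overlap between times and a mean log2 CPM of at least 3, up to 4 called members of each list with the smallest adjusted p, up to 8 called genes in each direction of the difference with a mean log2 CPM of at least 1, and a set of patterning genes. Genes named outside the rule were chosen after their values were seen. These were arr3b, zgc:173552_8, six7, nanos3, dnd1, pou5f3, nanog, lft2, ccnd2a, cdkn1ca, gadd45ab, sox17, eomesa, ndr1, ndr2, sox32, mixl1, foxa1, hoxa9b, hoxa2b, hoxc8a, hoxb4a, cyp26a1, aldh1a2, rdh10b, fgf3, dla, foxd3, tdgf1, he1.1, asb11, odf3l2a, slc6a16a, rab7b, pkdccb, fezf2, lhx2b, tbx6, mespaa, npas4l, osr1, bambib, fn1b, has2, epcam and rps19bp1.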

Additional observations from a re-analysis of the deposited data

Results flagged for a closer look

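The stage change of six3b differed between hs:wnt8a embryos and their siblings by the contrast that tests the difference itself, at -2.94 ± 0.40 log2 units (edgeR, adjusted p = 0.00946). Its 3 libraries at 7.5 hpf lay between 4.05 and 6.81 CPM in hs:wnt8a embryos and between 59.2 and 80.6 CPM in siblings.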

How the results depend on the processing

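With 2 libraries at 5.5 hpf, leaving out 1 library moved the number of genes that changed in hs:wnt8a embryos between 4727 and 7345, lowest without 5.5 hpf replicate 2 (4727) and replicate 1 (4838), and 60.0% to 86.9% of the 7718 calls were kept. The added fold limit of 1 log2 unit left 4516. RLE and upper-quartile scaling, DESeq2, both other filters, the fit of only these groups and the replicate block gave 7045 to 8372 genes. The block gave 8372, although same-numbered samples of the 2 times did not deviate together (r of 0.04 and 0.02). The deviations of the 2 libraries at 5.5 hpf mirror each other, so these values cannot decide whether a shared number marks a pair.

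The difference between the stage changes was called for 4 genes with DESeq2, 2 with only the groups compared, 2 with the replicate block, 45 with hs:dkk1b siblings in place of hs:wnt8a siblings, 2 without the 3 libraries that stand apart and 19 with the replicate block within each time, the last pair of alternatives chosen after seeing the data. Leaving out 1 library gave 0 to 2 genes, and 0 without sibling replicate 3 or either hs:wnt8a replicate at 5.5 hpf, with 528, 330 and 316 genes at an unadjusted p below 0.05. The stage change in hs:dkk1b siblings had 3628 to 5699 genes on leaving out 1 library, lowest without replicate 2 at 5.5 hpf, and that in hs:wnt8a siblings 5865 to 8006. The cause of these shifts was not tested beyond the loss of samples that they make.

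Of 132 genes named by the rule, 12 lost their call under at least 1 alternative and 4 gained one. 2 genes that did not pass changed sign, hsp70l (-0.35 without 7.5 hpf replicate 2, and up to 0.34 without replicate 3) and noto (0.07 without 7.5 hpf replicate 3, and down to -0.27 without replicate 2). For genes named outside the rule, no stage change on leaving out a library is given, except pou5f3 without 7.5 hpf replicate 1.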
